A study of Mus musculus with 8 samples.

Results

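The genes described here are 9 of the 52195 rows of the deposited expression table: Defa17, Defa24, Gm7849, Gm7861, Lyz1, Ang4, Mmp7, Itln1 and Pla2g2a, which encode antimicrobial products of the Paneth cell or proteins that act with them. They were taken by symbol. The symbols were chosen by their high FPKM in small intestine against the other tissues, so that contrast is described without a test. The table covers bulk RNA sequencing of polyadenylated RNA from kidney, lung, liver and small intestine of male C57BL/6 mice (C57BL/6J in the study's methods) that were 6 to 10 weeks old. Each tissue has 2 libraries, which makes 8. No animal carried an engineered allele or received a treatment, 4 tissues were excised from each mouse, and neither the labels nor the methods say which libraries came from the same mouse. Whole tissue was ground, so in these bulk samples fewer cells of a type and less RNA per cell cannot be told apart. Which segment of the small intestine was taken is not given in the sources used here.

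Paneth cells sit at the base of the small intestinal crypts, next to the stem cells, and release granules into the crypt lumen. The granules carry α-defensins (cryptdins in the mouse), short cationic peptides that disrupt bacterial membranes, which the metalloproteinase Mmp7 (matrilysin) frees from inactive precursors. They also carry the lysozyme Lyz1, which cleaves bacterial cell walls, the ribonuclease Ang4, and the secreted phospholipase Pla2g2a, whose gene is disrupted by a strain mutation in C57BL/6. Itln1 (intelectin) is a lectin that binds microbial glycans. Gm7849 and Gm7861 belong to the cryptdin-related sequences, a branch of the α-defensin family with another cysteine arrangement, and RefSeq calls them Defa42 and Defa43.

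In GENCODE M21 (GRCm38) the 4 defensin genes lie within the α-defensin cluster of chromosome 8. Defa17 spans chr8:21655780-21656735 and Defa24 chr8:21734494-21735471, both on the plus strand. Gm7849 spans chr8:21455445-21456560 and Gm7861 chr8:21593375-21594508, both on the minus strand. Lyz1 lies at chr10:117287797-117292868 next to its paralog Lyz2 at chr10:117277331-117282321, both on the minus strand. Ang4 lies at chr14:51763878-51773590 and Itln1 at chr1:171518122-171535294, on the minus strand. Mmp7 lies at chr9:7692090-7699585 and Pla2g2a, annotated as a polymorphic pseudogene, at chr4:138831857-138835186, on the plus strand. Expression was counted over the exons of each gene, including its UTRs.

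The coding sequences show how near the copies are and are printed because the values of near-identical genes cannot be read one by one. Defa24 is printed in lower case from its first coding base (279 bases), Defa17 follows with capitals at the 12 positions where it differs from Defa24, and Defa20, a gene outside the 9, follows with capitals where it differs from Defa24 or has a base that Defa24 lacks. The Defa20 alignment holds 50 differing columns of 289.
Defa24: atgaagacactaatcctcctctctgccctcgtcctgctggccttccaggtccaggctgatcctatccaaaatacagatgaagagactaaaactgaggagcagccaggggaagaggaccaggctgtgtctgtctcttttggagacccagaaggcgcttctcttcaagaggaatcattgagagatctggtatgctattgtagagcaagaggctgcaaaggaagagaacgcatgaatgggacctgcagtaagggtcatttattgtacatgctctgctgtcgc
Defa17: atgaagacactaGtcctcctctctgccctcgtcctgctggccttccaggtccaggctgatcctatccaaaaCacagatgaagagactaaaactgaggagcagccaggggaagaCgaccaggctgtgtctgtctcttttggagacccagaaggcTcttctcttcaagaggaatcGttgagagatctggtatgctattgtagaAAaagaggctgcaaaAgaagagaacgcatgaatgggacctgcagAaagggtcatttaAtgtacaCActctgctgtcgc
Defa20: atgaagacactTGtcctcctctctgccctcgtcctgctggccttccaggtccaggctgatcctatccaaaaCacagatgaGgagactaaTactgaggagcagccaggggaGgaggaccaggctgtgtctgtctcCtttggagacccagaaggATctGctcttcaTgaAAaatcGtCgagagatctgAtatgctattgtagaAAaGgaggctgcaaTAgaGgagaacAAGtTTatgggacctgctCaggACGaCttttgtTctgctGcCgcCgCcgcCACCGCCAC

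Gm7849 and Gm7861 have the same 348 coding bases, and their coding bases 151 to 348 are printed once, since this end of the gene sets the cryptdin-related sequences apart from Defa24.
Gm7849 and Gm7861: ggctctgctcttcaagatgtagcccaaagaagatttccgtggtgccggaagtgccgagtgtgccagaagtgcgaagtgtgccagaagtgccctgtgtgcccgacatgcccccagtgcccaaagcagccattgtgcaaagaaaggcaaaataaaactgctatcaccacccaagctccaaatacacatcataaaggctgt

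Lyz1 is shown with Lyz2, the lysozyme gene that macrophages use, over the first 150 coding bases, with capitals in Lyz2 at the 14 positions that differ.
Lyz1: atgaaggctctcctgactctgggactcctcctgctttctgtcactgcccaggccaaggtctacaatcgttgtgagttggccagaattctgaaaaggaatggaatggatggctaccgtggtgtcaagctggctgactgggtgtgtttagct
Lyz2: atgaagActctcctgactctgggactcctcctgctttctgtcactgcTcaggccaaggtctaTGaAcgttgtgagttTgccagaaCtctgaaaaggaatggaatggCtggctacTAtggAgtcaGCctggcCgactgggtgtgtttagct

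Identity over the whole coding sequence was 100% for Defa17 and Defa3, 100% for Gm7849 and Gm7861, and 98.6% for Defa24 and its closest copy Defa30. Lyz1 and Lyz2 differed at 22 of 444 bases. The coding sequence of Ang4 matched its closest relative compared, Ang5, at 88.0%. As a measure of how far reads can be placed, each gene's transcripts were cut into windows of 50 bases. A window found in the transcripts of another gene made up 100% of Gm7849, 97.6% of Gm7861, 92.0% of Defa17, 28.1% of Defa24 and 16.1% of Lyz1. The share was 4.70% for Ang4, 7.36% for Mmp7, 0.972% for Itln1 and 0% for Pla2g2a. Defa17 shared its windows with Defa3, and Lyz1 shared them with Lyz2. With windows of 100 bases the share fell to 0% for Defa24 and 2.06% for Lyz1, but was 90.6% for Defa17.

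The deposited values carry the trace of this. Multiplied by exon length, FPKM (reads scaled by the length of the gene and by library size) returned the reads behind each value. Gm7849 and Gm7861 had the same number of reads in 8 of 8 libraries, 13660 each in small intestine replicate 1 and 22951 each in replicate 2. Defa23 and Defa-rs7, another pair of equal coding sequence, were equal in 6 of 8 libraries and never more than 3 reads apart. Defa36 and Defa37 were equal in 6 of 8 libraries and at most 7 reads apart. Defa17 and Defa3 were equal in 0 of 8, with 13949 against 11273 reads in small intestine replicate 1. How multiply mapped reads were handled is not given in the sources used here, so a sum over copies may hold the same read more than once. The family sum and the share taken by the 9 genes are also given with 1 gene per coding sequence, and the other sums hold all copies.

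Defa24 was the highest of the 9 genes in both small intestine libraries, with 8137 FPKM in replicate 1 and 11626 FPKM in replicate 2, which ranked 12 and 10 among all genes. Its values elsewhere were 4.90 and 13.5 FPKM in kidney, 21.5 and 4.23 in lung, and 11.5 and 13.6 in liver. The small intestine libraries did not overlap the other 6, and the lower of them was 378 times the highest value elsewhere. Defa17 stood at 3753 and 4146 FPKM in small intestine, 1.41 and 6.84 in kidney, 13.4 and 2.03 in lung, and 5.22 and 5.61 in liver. Its small intestine libraries were the closest to each other of the 4 defensin genes, at a ratio of replicate 2 to replicate 1 of 1.10. Gm7849 stood at 2990 and 4153 FPKM in small intestine, and at 1.05 and 4.14 in kidney, 6.93 and 2.31 in lung and 1.79 and 3.77 in liver. Gm7861 stood at 2884 and 4006 FPKM in small intestine and differed from Gm7849 by gene length alone, since the reads were equal. Without a test, since these values chose the genes, log2(FPKM + 1) in small intestine exceeded the mean of the other tissues by 9.78 (SE 0.55) for Defa24, 9.44 (SE 0.61) for Defa17, 9.81 (SE 0.44) for Gm7849 and 9.79 (SE 0.44) for Gm7861.

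The non-defensin products were lower per length, in the order Lyz1, Itln1, Ang4, Mmp7 and Pla2g2a. Lyz1 stood at 1910 and 3323 FPKM in small intestine, with 2616 ± 999 (SD, n = 2). Itln1 stood at 913 and 1311 FPKM there, with 1112 ± 282 (SD, n = 2). Both small intestine libraries of Lyz1 were above both of Itln1, and the whole order held in each small intestine library. Ang4 stood at 128 and 263 FPKM, the widest gap of the 9 genes between the small intestine libraries at 2.05. Mmp7, which activates the defensins, stood at 42.1 and 45.6 FPKM, the narrowest gap at 1.08. Pla2g2a was detected despite the strain mutation, at 8.98 and 17.4 FPKM from 78 and 183 reads. The differences of log2(FPKM + 1) from the other tissues were 7.35 (SE 0.27) for Lyz1, 7.87 (SE 0.41) for Itln1, 7.34 (SE 0.27) for Ang4, 5.24 (SE 0.18) for Mmp7 and 3.69 (SE 0.22) for Pla2g2a, again as a description. All 9 genes were higher in small intestine replicate 2 than in replicate 1. Defa17 led Gm7849 in replicate 1 and Gm7849 led Defa17 in replicate 2, so their order did not hold beyond the spread. Gm7861 was the lowest of the 4 defensin genes in both libraries, but lay below Gm7849 by gene length alone, since their reads were equal.

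**Figure D1:**
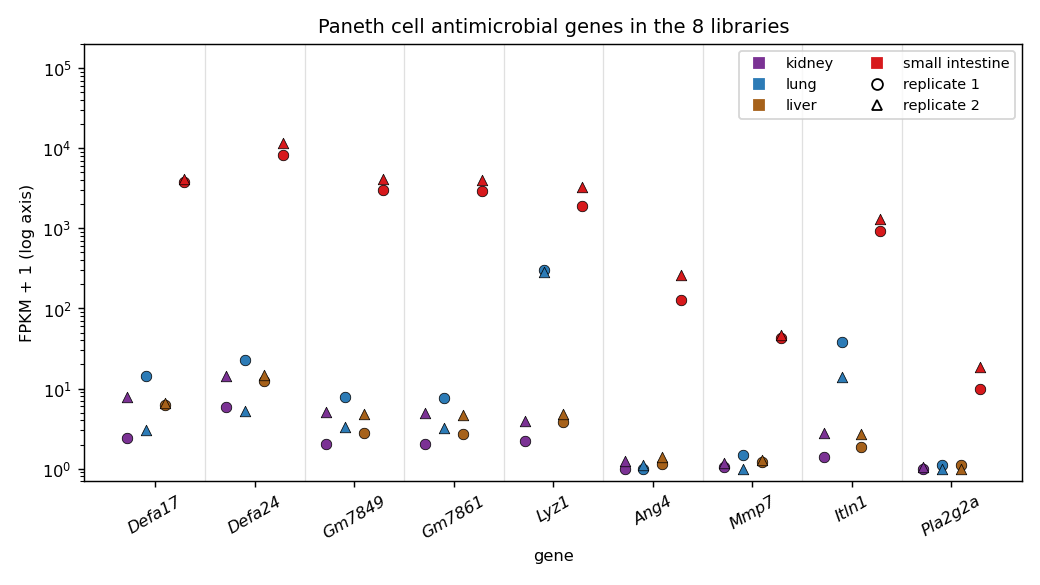
FPKM + 1 of the 9 genes on a log axis, 1 point per library, with colour for the tissue and shape for the replicate. The small intestine points lie above all others for every gene, from 8.98 FPKM (Pla2g2a, replicate 1) to 11626 FPKM (Defa24, replicate 2), and Lyz1 in lung is the highest value outside small intestine at 299 FPKM.

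Summed FPKM of the 9 genes was 20767 and 28891 in small intestine. It was 385 and 312 in lung, 10.0 and 33.7 in kidney and 24.4 and 32.8 in liver. The 4 defensin genes made up most of the small intestine sum, with 17764 and 23931 FPKM, and the other 5 genes gave 3002 and 4960. In small intestine the 9 genes took 3.03% and 4.37% of the summed FPKM of all genes, or 2.61% and 3.77% with Gm7861 left out as the second copy of Gm7849. Taking genes of the mitochondrial genome and their chromosome 1 pseudogenes out of the total raised the share to 5.92% and 8.51%.

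Outside small intestine 7 of the 9 genes were at 0 or at traces of up to 1.09% of their small intestine mean (Mmp7 in lung replicate 1). Summed over the 4 defensin genes, FPKM in kidney was 0.0402% and 0.137% of the small intestine mean, in lung 0.233% and 0.0517%, and in liver 0.0969% and 0.128%. Lung replicate 1 was the highest and kidney replicate 1 the lowest. The enterocyte genes Alpi, Sis and Lct, which mark absorptive cells and were chosen for this after their values were seen, gave when summed between 0.0215% (kidney replicate 1) and 0.249% (lung replicate 1). All 6 listed enterocyte genes together, among them Apob, Fabp2 and Anpep, which other tissues also express, gave 0.242% to 2.26% with the highest value in liver replicate 1. The 8 acinar genes gave 0.0440% (kidney replicate 1) to 0.280% (lung replicate 1). The 6 goblet cell genes gave 0.0980% (kidney replicate 2) to 0.959% (lung replicate 1). The lowest and highest libraries of the defensin sum were thus those of Alpi with Sis and Lct and of the acinar genes, but not both those of the full enterocyte or the goblet cell list. The part of small intestine material or reads in these traces was not tested. Ang4 had at most 3 reads in any library outside small intestine, Pla2g2a at most 1 and Mmp7 at most 5, which leaves these genes at or near the limit of 3 reads used here for detection.

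Lyz1 and Itln1 were the exceptions, and both lay in lung. Lyz1 in lung was 299 and 288 FPKM, against 1.22 and 2.93 in kidney and 2.85 and 3.76 in liver. Lung therefore held 11.4% and 11.0% of the small intestine mean, and neither lung library overlapped kidney or liver. In limma, with all libraries in a single fit and Benjamini-Hochberg adjustment over 16328 genes, the log2 difference of lung from kidney was 6.64 (SE 0.33, adjusted p = 2.39e-06) and of lung from liver 6.10 (SE 0.33, adjusted p = 2.56e-06). Itln1 in lung was 36.9 and 13.1 FPKM, against 0.409 and 1.82 in kidney and 0.861 and 1.70 in liver. Its log2 difference was 3.54 from kidney (SE 0.51, adjusted p = 0.000498) and 3.37 from liver (SE 0.51, adjusted p = 0.000487). Itln1 depended on which lung library was kept, at 2.82 from kidney without lung replicate 1 and 4.25 without lung replicate 2.

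A gene was called when its adjusted p was under 0.05 and its absolute log2 difference over 1. By that rule 2 of the 9 genes were called higher in lung than in kidney, where 41.4% of all genes tested were, and 2 of 9 higher in lung than in liver, where 55.5% were. None of the 9 was called between kidney and liver (0 at an unadjusted p under 0.05 as well), against 23.1% of all genes in either direction. Ang4, Mmp7 and Pla2g2a were under 0.5 FPKM in every kidney, lung and liver library and entered the test through small intestine alone, so they could not be called in these contrasts, and the counts concern the other 6 genes. The median log2 difference of all genes was 0.81 for lung against kidney, 1.13 for lung against liver and 0.27 for kidney against liver, and the medians of the 9 genes were 0.60, 0.04 and -0.17. The differences of Lyz1 and Itln1 were far above these medians, and with median-of-ratios scaling, which brings the medians of all genes to about 0, Lyz1 was higher in lung by 5.58 and 4.60 and Itln1 by 2.55 and 2.08. Genes called between lung and kidney were higher in lung in 82.4% of cases as deposited and 49.9% with that scaling. For lung against liver the split was 88.5% and 50.9%, and for kidney against liver 70.1% and 51.2% higher in kidney.

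Lyz1 in lung stood beside a far higher Lyz2, at 5269 and 4833 FPKM, against 103 and 78.2 in small intestine. Lyz1 made up 5.37% and 5.62% of Lyz1 and Lyz2 together in lung, but 94.9% and 97.7% in small intestine. In kidney and liver the share was between 4.80% and 12.4%. Summed macrophage genes (6 listed, all in the table) were 154 and 125 FPKM in lung, 16.3 and 12.8 in kidney, 51.5 and 51.7 in liver. In small intestine the macrophage sum was 63.1 and 40.9, and the scavenger receptor Marco was at 0 there. Neutrophil genes (6 listed) summed to 27.5 and 161 FPKM in lung. The part of misplaced Lyz2 reads, macrophages or neutrophils in the lung value of Lyz1 was not tested. Beside Itln1, summed goblet cell genes (6 listed, all in the table) were 17.8 and 9.10 FPKM in lung, 2.05 and 1.81 in kidney and 3.41 and 3.36 in liver, and the mucin Muc2 was at 0.244 and 0.113 in lung. Their part in the lung value of Itln1 was not tested.

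**Figure D2:**
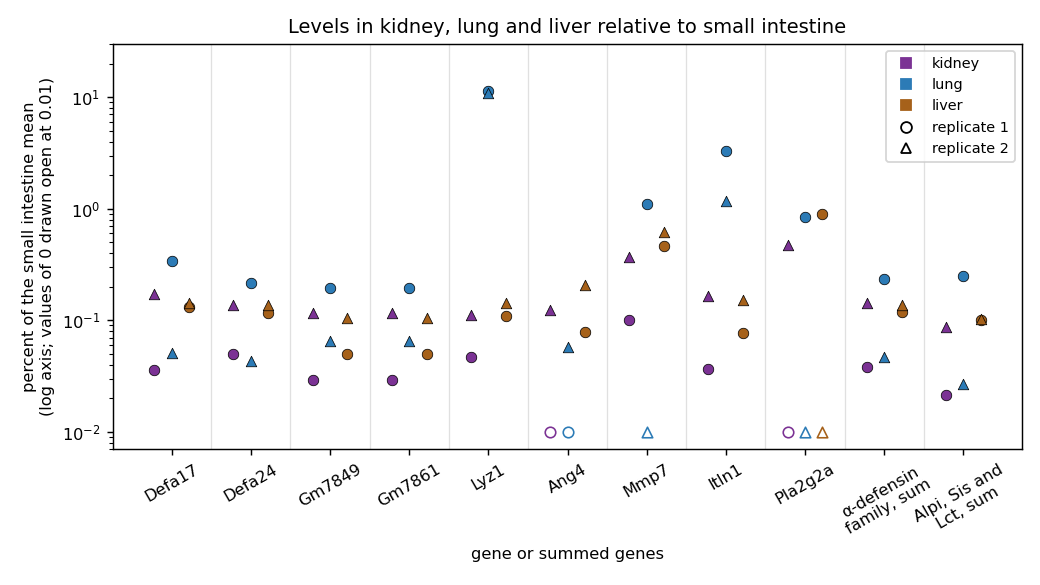
FPKM in the 6 kidney, lung and liver libraries as a percentage of the small intestine mean of the same gene, on a log axis, with values of 0 drawn as open symbols at the bottom. Lyz1 in lung lies at 11.4% and 11.0% and Itln1 in lung at 3.32% and 1.18%. The summed α-defensins lie between 0.0380% and 0.233%, and Alpi, Sis and Lct, chosen after their values were seen, between 0.0215% and 0.249%. All 6 listed enterocyte genes, not drawn, gave 0.242% to 2.26%, highest in liver replicate 1.

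The 4 defensin genes belong to a larger family, in which Defa24 was the highest in both small intestine libraries. The order of Defa17, Defa-rs7, Gm7849 and Gm7861 below it differed between the libraries. By symbol the table holds 47 α-defensin rows, 30 protein-coding and 17 pseudogenes, of which 31 reached a small intestine mean of 1 FPKM and 22 a mean of 100. The highest pseudogene mean was 19.1 FPKM. Summed over the family, small intestine held 37692 and 61607 FPKM, or 5.50% and 9.32% of the total, and 27945 and 45640 FPKM with 1 gene per coding sequence. The 4 defensin genes gave 47.1% of the family sum in replicate 1 and 38.8% in replicate 2. Of the 43 rows outside the 9 genes, 26 passed the filter of 1 FPKM in at least 2 libraries, and all 26 were called higher in small intestine against kidney, lung and liver averaged, where 13.7% of all genes were called higher and 11.3% lower. Their median log2 difference was 7.38, against -0.01 over all genes tested. The filter could be passed through small intestine alone, and the copies share reads with the chosen genes, so this count is not independent of the choice.

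The family fell into groups when coding sequences of at least 95% identity were joined. Defa17 and Defa24 were joined with Defa3, Defa23, Defa30 and Defa-rs7, at a summed 24468 and 30520 FPKM in the small intestine libraries. Gm7849 and Gm7861 were joined with Gm14851, AY761184 and Defa29, at 10825 and 13799. These groups changed little between the small intestine libraries, at ratios of replicate 2 to replicate 1 of 1.25 and 1.27. The exception inside them was Defa29, at 121 and 446 FPKM.

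Among the other groups, some differed far more between the same libraries. Defa2, Defa20, Defa32 and Defa33, which share 99.6% or more of their coding bases, summed to 215 FPKM in replicate 1 and 7572 in replicate 2, a ratio of 35.2. Defa20 alone went from 64.3 to 2359 FPKM, on 256 and 11354 reads. Defa21 and Defa22 summed to 106 and 2925 FPKM, a ratio of 27.7. The group of Defa5, Defa34, Defa35, Defa36, Defa37 and Gm15293 lay between, at 1921 and 6524, a ratio of 3.40. The pair Defa26 and Gm15292 differed less, at 124 and 198 FPKM, and Defa28 stood at 1.60 and 3.97.

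Both the stable and the variable copies belong to 1 cluster on chromosome 8, where the coding genes with a small intestine mean of at least 1 FPKM span chr8:21025545-21735471. Over the 3865 tested genes with a small intestine mean of at least 10 FPKM, the middle 95% of log2 ratios of replicate 2 to replicate 1 lay between -0.93 and 0.85 with a median of -0.08. Of these genes 33 (0.854%) were over 3-fold higher in replicate 2, and 13 of the 33 were among the 27 α-defensin genes of this set. Near-identical copies may share reads, so these α-defensin counts are not counts of independent genes. More than 10-fold higher were 8 genes, of which 6 were the Defa2, Defa20, Defa21, Defa22, Defa32 and Defa33 just described, and the other two, Ighv2-5 and Igkv3-5, were immunoglobulin segments named after their values were seen. With 2 small intestine libraries no test of this difference can be made. The 9 genes kept ratios from 1.08 to 2.05.

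**Figure D3:**
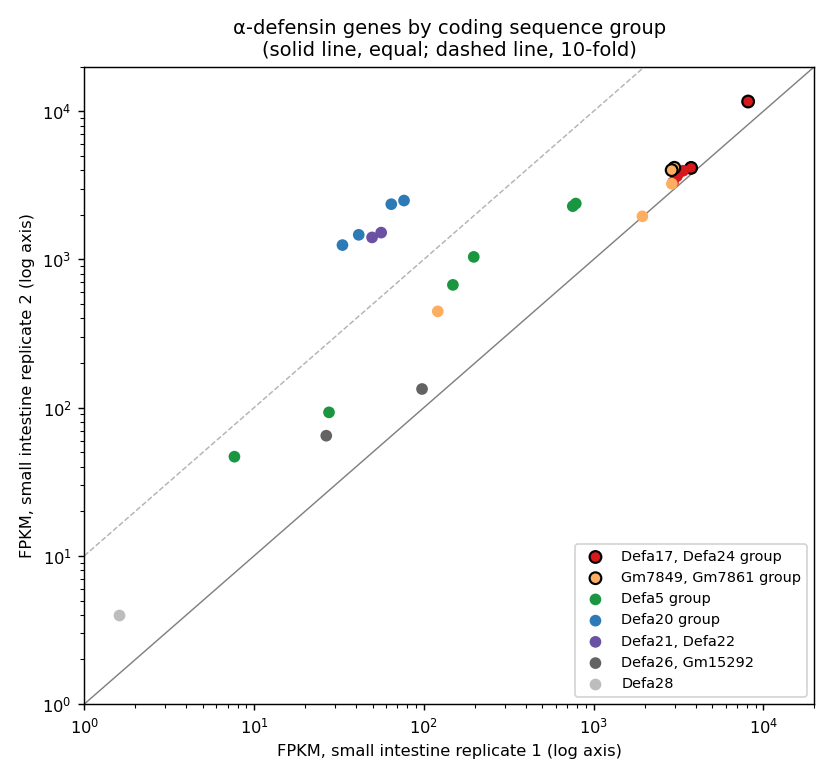
FPKM of the coding α-defensin genes in small intestine replicate 1 (x) and replicate 2 (y), on log axes, coloured by coding sequence group, with black outlines for the genes among the 9. The outlined genes lie near the line of equality, while the Defa20 group and Defa21 with Defa22 lie above the dashed 10-fold line, at summed values of 215 against 7572 FPKM and 106 against 2925.

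Genes listed as markers of the distal small intestine were also higher in replicate 2. Fabp6, the ileal bile acid binding protein, was at 0.223 and 25.4 FPKM in the small intestine libraries, on 1 and 138 reads. Slc10a2, the ileal bile acid transporter, was at 0.309 and 1.62, and the transcription factor Osr2 at 2.45 and 10.4. Summed, the 3 distal genes were at 2.98 and 37.5 FPKM, higher in replicate 2 for 3 of 3, and the 4 proximal genes (Gata4, Onecut2, Slc40a1 and Cybrd1) at 38.8 and 34.2, lower in replicate 2 for 4 of 4. Gata4, the proximal regulator, stood at 25.6 and 25.2 FPKM. The pancreatic acinar genes, 8 listed and 8 in the table, summed to 2523 and 1140 FPKM, lower in replicate 2 for 8 of 8, and enteroendocrine genes to 171 and 119. Outside these lists Nos2, at 0.339 and 4.68 FPKM, and Duox2, at 0.417 and 3.88, were also higher in replicate 2, both named after their values were seen. The part of any of these genes in the difference between the copies was not tested.

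**Figure D4:**
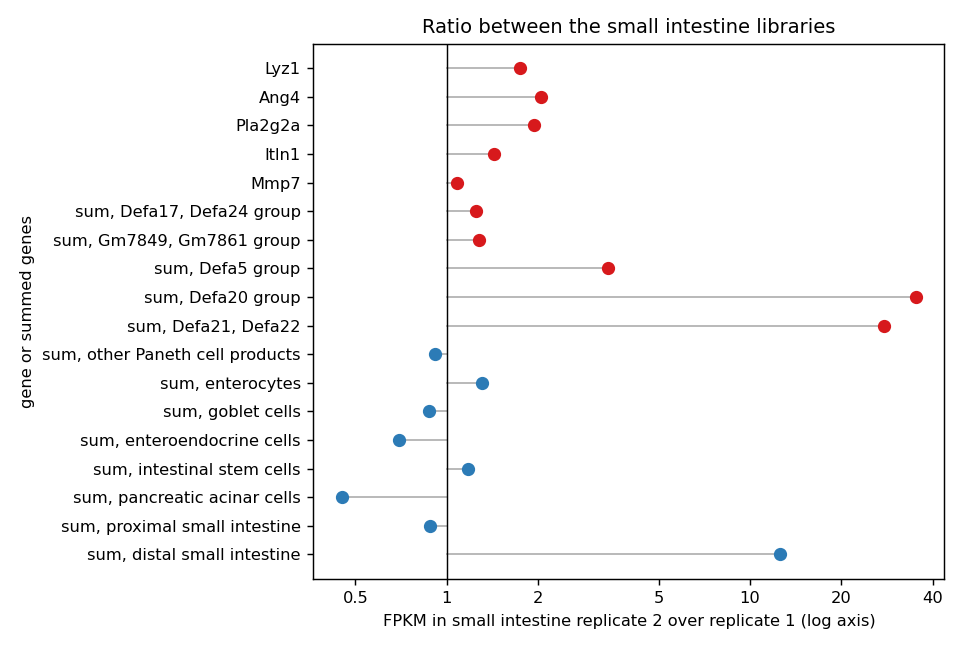
Ratio of FPKM in small intestine replicate 2 to replicate 1, on a log axis, for single genes and summed groups, with red points for Paneth cell antimicrobial genes and defensin groups and blue points for gene lists. Lyz1, Ang4, Pla2g2a, Itln1 and Mmp7 lie between 1.08 and 2.05, the Defa20 group at 35.2, and the distal small intestine genes at 12.6, whereas proximal genes lie at 0.881 and acinar genes at 0.452.

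For the gene lists that follow, calls are those of small intestine against the other tissues averaged, and the shares of all genes called in that contrast, 13.7% higher and 11.3% lower, are the background of each count. Genes near 0 in kidney, lung and liver, such as Mptx1, Mptx2 and Clps, passed the filter through small intestine alone and so had to differ, which limits what the counts say about a list. Of 9 listed other products of the Paneth cell, 5 were called higher in small intestine, 1 lower and 3 neither, with a median log2 difference of 1.65. In small intestine replicate 2 their sum was 0.917 times that of replicate 1, and 5 of 9 were higher. Mptx2, a mucosal pentraxin, was called higher, at 200 and 216 FPKM against at most 0.903 in any other library (log2 difference 7.26, SE 0.21). Guca2b, the peptide uroguanylin, was at 696 and 708 FPKM (6.15, SE 0.29) but also at 180.1 in kidney on average. Clps, the pancreatic colipase, was at 293 and 156 FPKM, lower in replicate 2 as the acinar genes were. Habp2 was the listed product called lower, at 1.64 and 3.40 FPKM against a liver mean of 32.4. Cd24a missed the fold at 0.96, with 46.0 and 44.7 FPKM in small intestine and a higher 151 and 128 in lung.

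Of 14 listed differentiation and function genes 13 were tested, and 5 were called higher and 0 lower. The Wnt receptor Fzd5 was called higher, at 8.88 and 10.2 FPKM (log2 difference 2.32, SE 0.20, adjusted p = 4.33e-05). Xbp1, a regulator of secretory capacity, stood at 60.4 and 64.9 FPKM against a lung mean of 89.7, and was not called (0.36, adjusted p = 0.144). Il4ra and Kit were also highest in lung, at means of 18.3 and 13.6 FPKM, and were not called. The transcription factors that set the secretory lineage were low in absolute level, with Atoh1 at 4.03 and 5.95 FPKM and Sox9 at 3.54 and 2.22, both named after their values were seen.

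Other antimicrobial genes divided by tissue. Of 17 listed 14 were tested, and 7 were called higher in small intestine and 5 lower. The higher ones included the lectins Reg3b at 1818 and 1103 FPKM and Reg3g at 430 and 501, and the goblet cell lectin Zg16 at 1530 and 1645. The immunoglobulin receptor Pigr was among them, at 1397 and 1073. Reg3g was also at a mean of 129 FPKM in lung. The lower ones were Ltf, Lcn2, S100a8 and S100a9, whose means were highest in lung (30.5, 105, 67.1 and 125 FPKM), and the β-defensin Defb1, highest in kidney at 183. The lung libraries differed widely for S100a8, at 23.6 and 110 FPKM, and for S100a9, at 36.3 and 214.

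Paralogs of the non-defensin genes were listed as well. Lyz2 was the 1 tested gene of 6 listed lysozyme relatives and was not called in small intestine (log2 difference -0.96, SE 0.15, adjusted p = 0.00104, under the fold of 1). Of 10 listed ribonuclease relatives of Ang4, 4 were tested. Rnase1 was called higher, at 183 and 72.6 FPKM, lower in replicate 2 as the acinar genes were. Rnase4 was called lower, at 33.2 and 38.4 against a liver mean of 438, and Ang and Rnase6 were not called. Of 12 listed metalloproteinases beside Mmp7, 11 were tested, and 3 were called higher and 3 lower. Mmp2 and Mmp3 had their highest means in lung, at 29.2 and 39.6 FPKM, and Mmp10, named after its values were seen, was at 16.3 and 10.3 in small intestine. Of 10 listed secreted phospholipases beside Pla2g2a, 7 were tested, and 5 were called higher and 0 lower, led by Pla2g12b at 49.3 and 57.2 FPKM. For intelectin relatives of Itln1, 0 of 3 listed symbols matched a row of the table.

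Marker genes of the small intestinal epithelium were present. The 6 enterocyte, 6 goblet cell and 6 enteroendocrine genes were all called higher there, as were 3 of 3 tested stem cell genes and 2 of 2 tested tuft cell genes, whereas 2 of 6 macrophage and 1 of 3 tested neutrophil genes were called lower. A call sets small intestine against an average over tissues, and Apob, Pglyrp1, Pla2g2d and Slc30a2 were called higher although 1 other tissue had a higher mean. Slc30a2, a listed Paneth cell product, was at 9.20 and 13.3 FPKM in small intestine and 16.2 and 10.8 in kidney. The 8 acinar genes, which mark the pancreas, were also all called higher. Many of these genes could pass the filter through small intestine alone, so the counts describe the tissue and are no test of the lists. Between the small intestine libraries the enterocyte sum was 1.30 times and the goblet cell sum 0.878 times as high in replicate 2, and the sum of the 9 genes was 1.39 times as high.

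The genes most like the summed 9 genes over the 8 libraries were sought among 3833 genes with a small intestine mean of at least 10 FPKM outside the α-defensin family. By Pearson correlation of log2(FPKM + 1) they were Ms4a8a, Galnt6, Clca1, Ap3s1 and Sdcbp2, at 0.994, 0.994, 0.992, 0.992 and 0.991. Their second highest tissue was lung, as for the summed 9 genes, where Lyz1 sets the lung value. Clca1, for example, a goblet cell gene, was at 110 and 118 FPKM in small intestine and 6.32 and 3.39 in lung. The points share tissues and libraries, and by Spearman correlation another gene, 2010109I03Rik, was first at 0.994 and 0 of these 5 reached that value.

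Promoters were compared because Paneth cell genes are held to respond to Wnt signalling through TCF/LEF factors. RefSeq promoter entries (GRCm38.p6), from 250 bases before to 50 after the start, were found for 6 of the 9 genes and for 18 of the family. The letters CTTTGAT or CTTTGAA on either strand were in 13 of the 18 family genes and in 1 of the 6 (Mmp7), against 8.65% of all 32851 promoters. The 18 and the 6 were counted by gene and the background by promoter entry. Mmp7 has 2 overlapping entries that hold the same match, which lies after the start in entry 1. The letters TATAAA on either strand were in 16 of 18 and in 3 of 6, against 13.6%, and no such match overlapped a TCF/LEF match. Near-identical promoters are not independent, and a match is a description of letters. The 250 bases before the start are printed for a copy that was far higher in small intestine replicate 2 (Defa20, chr8:21509008-21509257, plus strand), for one of the stable group of Defa24 (Defa30, chr8:21134400-21134649, plus strand) and for Gm7849 (chr8:21456518-21456767, minus strand), with TCF/LEF matches in capitals.
Defa20: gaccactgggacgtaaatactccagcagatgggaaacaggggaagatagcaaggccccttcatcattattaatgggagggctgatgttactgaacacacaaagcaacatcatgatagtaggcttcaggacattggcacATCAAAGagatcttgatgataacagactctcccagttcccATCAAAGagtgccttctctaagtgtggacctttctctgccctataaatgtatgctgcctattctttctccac
Defa30: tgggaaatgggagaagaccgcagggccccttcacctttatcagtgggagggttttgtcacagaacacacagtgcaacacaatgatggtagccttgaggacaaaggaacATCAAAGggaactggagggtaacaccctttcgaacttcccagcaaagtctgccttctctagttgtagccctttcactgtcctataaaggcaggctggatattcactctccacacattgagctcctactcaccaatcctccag
Gm7849: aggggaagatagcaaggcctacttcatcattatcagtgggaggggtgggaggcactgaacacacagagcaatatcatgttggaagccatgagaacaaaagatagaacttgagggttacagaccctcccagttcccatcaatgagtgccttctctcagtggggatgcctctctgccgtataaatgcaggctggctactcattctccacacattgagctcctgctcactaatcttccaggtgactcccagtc
Defa20 holds 2 matches, Defa30 1 and Gm7849 0. Defa2, Defa21, Defa22 and Defa32, which were also far higher in replicate 2, hold 2 each. Among the groups of Defa24 and Gm7849, Defa23 and Defa-rs7 hold 2 each and Gm7861 and Gm14851 hold 0.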

How the data were processed

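Bulk RNA sequencing of 8 libraries, 2 for each of 4 tissues, was analysed, with tissue and replicate taken from the labels. The authors deposited FPKM values: after index selection by bbduk, reads were aligned to Ensembl's GRCm38 by STAR 2.5.3a at default settings, and DESeq2's fpkm function gave the deposited values. The counting program, its use of strand and its handling of multiply mapped reads are not given in the sources used here. All value columns matched a sample by name.

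The 9 genes, the gene lists and the tests were chosen with earlier results of these data known. Values were taken as log2(FPKM + 1). The 16328 genes that reached 1 FPKM in 2 or more libraries entered limma 3.58.1 in R 4.3.3 (eBayes with a trend and all 8 libraries in 1 fit), and p-values were adjusted by Benjamini-Hochberg. A call required an adjusted p under 0.05 together with a log2 difference beyond 1 in size. A fold on this scale understates the change of low genes. The contrasts of lung, kidney and liver leave out small intestine, whose values chose the genes. P-values measure the spread between libraries, 2 per tissue.

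Depth was recovered from the steps of low values (below 50 reads) times the exon length in GENCODE M21, in which 51847 symbols (99.3%) matched a single gene: 94.5% to 96.1% of those values per library were whole within 0.02 reads. Depth was 9164187 to 21444675 reads on genes, and 3 reads on a gene of 1 kb correspond to 0.140 to 0.327 FPKM. This covers counting error only. Because the values are FPKM, no count model was used.

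Coding sequences came from GENCODE M21 and were aligned globally (Biopython 1.88). Promoters came from RefSeq. The closest relative of a gene was to be chosen by protein identity, and coding sequence identity was used instead. It was sought within the α-defensin family, the lysozyme and angiogenin genes and a few relatives, so none is given for Mmp7, Itln1 and Pla2g2a. Named genes were the 9, the α-defensin rows with a small intestine mean of at least 1, up to 4 genes per list with the highest mean in any tissue and those called against most of their list, the closest relatives, and the 5 genes most like the summed 9. The fit was first tested on simulated data. Alternatives changed the pseudocount, the filter, the scaling, the mitochondrial genes, the trend, the replicate block and the libraries included. Python 3.11.15 with numpy 2.4.6, pandas 2.3.3, scipy 1.17.1 and matplotlib 3.10.9 was used.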

Additional observations from a re-analysis of the deposited data

How the results depend on the processing

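The counts of the 9 genes called in the lung, kidney and liver contrasts were 2, 2 and 0 under each of the 14 alternatives, and the 26 α-defensin rows called higher in small intestine were 26 under each. Listed genes outside the 9 called higher in small intestine were 86 as reported and 86 to 93 over the alternatives, and those called lower 13 and 9 to 14. Lyz1 and Itln1 kept their direction in both lung contrasts under every alternative. In the alternatives that kept all libraries they also kept their calls in limma, with adjusted p up to 5.41e-05 for Lyz1 and 0.0153 for Itln1. Without lung replicate 1 the log2 difference of Itln1 from kidney was 2.82, and without lung replicate 2 it was 4.25.

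The described differences of small intestine moved with a pseudocount of 0.1 for the low genes, to 9.75 for Ang4, 7.45 for Mmp7 and 6.50 for Pla2g2a. Leaving out either small intestine library gave 6.82 to 7.85 for Ang4 and 3.25 to 4.14 for Pla2g2a. Without mitochondrial genes and their pseudogenes the share of summed FPKM was 7.21% instead of 3.70% for the 9 genes and 14.4% instead of 7.41% for the family, means of 2 libraries, since the total is smaller.

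Counts over all genes depended on scaling. With median-of-ratios scaling, 2764 genes were called higher and 2780 lower in lung than in kidney (6764 and 1448 as deposited), 3104 and 2998 in lung than in liver (9058 and 1178), and 1886 and 1799 in kidney than in liver (2646 and 1126). Without mitochondrial genes the counts were 4020 and 2247 for lung against kidney and 5159 and 892 for kidney against liver. A pseudocount of 0.1 called 4054 genes higher in kidney than in liver, and 3098 higher and 2991 lower in small intestine (2244 and 1843 as deposited). The replicate block left 2, 2 and 0 of the 9 genes called. Deviations of same-numbered libraries had correlations between -0.22 and 0.05 over 6 pairs of tissues, 0 over 0.1. A low correlation does not show that libraries came from different mice, and which libraries shared a mouse was not tested. Ang4, Mmp7 and Pla2g2a had at most 5 reads in any library outside small intestine, so differences among kidney, lung and liver in these genes were not detectable at this depth.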

Other observations

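The copy make-up of the α-defensin traces in kidney, lung and liver was compared with that of the small intestine libraries. The 6 copies Defa2, Defa20, Defa21, Defa22, Defa32 and Defa33 gave 0.852% of the family's summed FPKM in small intestine replicate 1 and 17.0% in replicate 2. In the kidney libraries they gave 10.5% and 12.0%, in lung 10.6% and 14.8%, and in liver 13.6% and 11.7%. The reads on these copies outside small intestine were 18 of 168 and 62 of 510 in kidney, 51 of 473 and 18 of 125 in lung, and 31 of 222 and 35 of 295 in liver, summed over rows that may share reads. All 6 shares lie between those of the small intestine libraries. The comparison was made after the values were seen, and no test was run.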
